A study of Homo sapiens with 14 samples.

Results

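SW620, an established human colorectal cancer line, was grown without drug for 20 days as a mixed population in which each guide directs a cut to a single gene, and guide counts at day 20 were compared with those at day 0. All 19114 genes targeted by the library were considered, and 19099 of them, those with at least 3 well-counted guides, are described here. The comparison sets Cas9-expressing SW620 with the Brunello knockout library (4 guides for most genes and 1000 non-targeting guides), untreated at day 20, against the same population untreated at day 0. RKO, another established colorectal cancer line with the same Cas9 and library, untreated at day 20 and at day 0, and the SW620 knockout population after 20 days in 0.38 or 0.5 µM oxaliplatin are used for side-by-side values only. All of these cells had been selected with blasticidin for Cas9 and with puromycin for the library, which went in at a multiplicity of infection of about 0.3, and SW620 grew in RPMI while RKO grew in EMEM. The study, with 14 libraries in all, set out to find genes that alter the response to oxaliplatin, and the untreated libraries are its measure of growth without the drug. Only guide counts in genomic DNA were measured, so the identity of the line could not be checked against marker genes.

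In such a screen a guide directs Cas9 to cut 1 gene, and the repair of the cut usually disrupts that gene. Cells that lose a gene they need divide less or die, so guides to that gene take up a shrinking share of the population, and guides to genes that hold growth back take up a growing share. Ribosomes, the proteasome, the spliceosome and the replication fork are needed by nearly all dividing cells, whereas dependence on oncogenes and on respiration differs between lines. Most colorectal cancers carry mutations that activate the Wnt pathway, in which beta-catenin acts with TCF factors to switch on genes such as MYC.

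The value of a gene is the median, over its guides, of the log2 ratio of scaled counts at day 20 over day 0, called its log2 fold below. A gene was called lost where this median was -1 or lower and at least 3 guides lay below the 5th percentile of the non-targeting guides, and gained where it was 1 or higher with at least 3 guides above their 95th percentile. The labels give 1 library per condition, so no value has a replicate check, no test between conditions exists and no p-value is given. Each statement compares libraries, and the spread shown is that between guides, which are separate cuts of the same gene counted in the same libraries. The day 20 library held 47429044 counts and the day 0 library 69526489, with medians of 524 and 774 counts per guide.

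The 992 non-targeting guides with enough counts gave the background. Their median log2 fold was 0.22 and their SD 0.20, and their 5th and 95th percentiles were -0.11 and 0.54. None of the 992 fell to -1 or lower, and 3 reached 1 or higher. The SD was 3.77 times the median counting error of 0.05, so depth set little of the spread between guides. Because the non-targeting guides moved up relative to the typical gene, whose median was 0.00, the sign of a value near 0 depends on whether the library or the non-targeting guides are taken as the zero point.

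The genes lost in SW620 included many of protein synthesis, transcription, splicing and replication, by modest amounts, and no gene was gained at the threshold used. Of the 19099 genes, 260 were lost (1.36 percent) and 0 gained (0 percent). With the threshold lowered to 0.5, 1276 were lost (6.68 percent) and 12 gained (0.0628 percent). In the 643 tested genes of the growth lists (ribosome, proteasome, chaperonin, splicing, transcription, replication, mitosis, tRNA charging, initiation, nuclear pore and the like), 105 were lost and the median was -0.59, against a median of 0.00 over all genes. The growth, respiration and metabolism lists together held 5.16 percent of the tested genes and 47.7 percent of the lost genes (124 of 260). The losses were seldom deep: the median over the lost genes was -1.24, and 9 genes reached -2 or lower. All 4 guides passed -1 in 24 lost genes, 3 guides did so in 123 and 2 guides in 113.

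**Figure D1:**
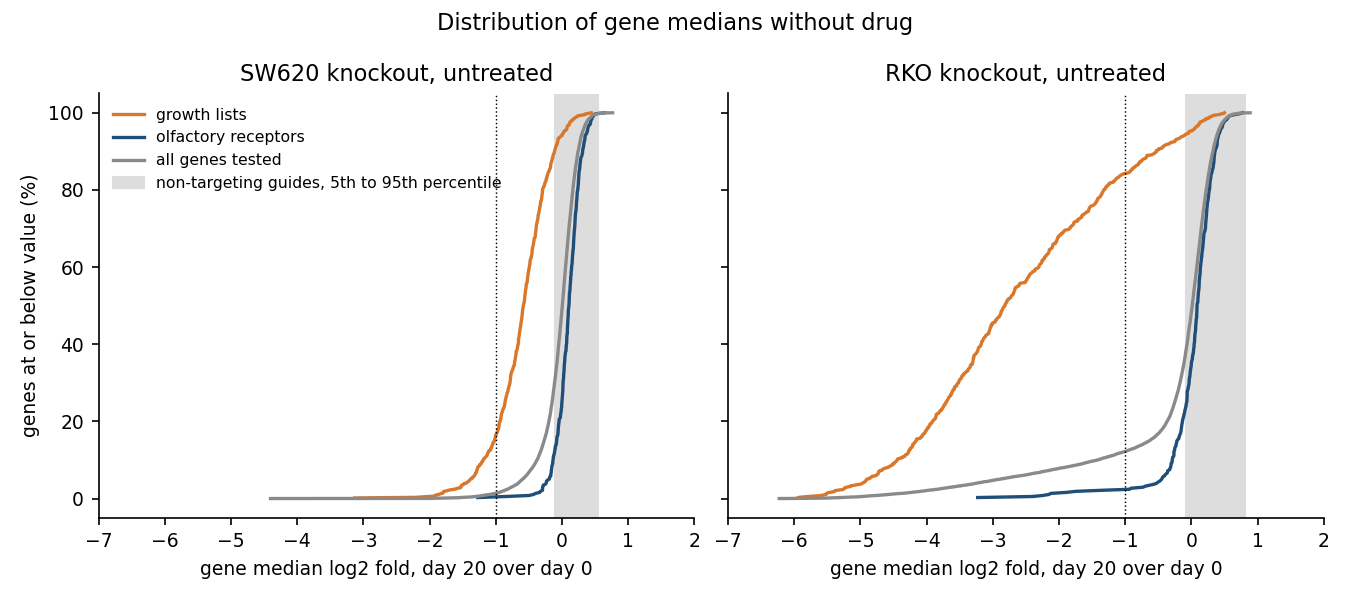
Cumulative share of genes (vertical axis, percent) by gene median log2 fold, day 20 over day 0 (horizontal axis), in SW620 (left) and RKO (right). Lines are the growth lists, the olfactory receptors and all tested genes, the grey band spans the 5th to 95th percentiles of the non-targeting guides, and the dotted line marks -1. The growth lists lie left of all genes in both lines, with medians of -0.59 in SW620 and -2.81 in RKO, while the olfactory receptors stay near 0 in both.

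The same library gave far larger changes in RKO. There 2312 of 19092 genes were lost (12.1 percent), and the SD of the gene medians was 0.29 in SW620 and 1.02 in RKO. Of the 643 and 641 growth-list genes tested in SW620 and RKO, 105 and 536 were lost. The difference between lines was not tested, and the number of divisions in 20 days was not measured here. The non-targeting guides had SDs of 0.20 in SW620 and 0.30 in RKO, so the wider range in RKO's genes came with a somewhat wider background. Of SW620's 260 lost genes, 244 were also lost in RKO, that is, 93.8 percent of SW620's list and 10.6 percent of RKO's, and 2 were not tested there. The 260 genes had a median log2 fold of -1.24 in SW620. The 258 tested in RKO had a median of -3.60 there, and 239 of these were lower in RKO than in SW620. Across the 19092 genes tested in both lines the Spearman correlation was 0.34, a description across genes, which share libraries and are not independent replicates.

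Among the 63 gene lists the proteins of the large subunit of the cytosolic ribosome had the lowest median. Of 47 large-subunit proteins 22 were lost, with a median of -0.93, and of 32 small-subunit proteins 10 were lost, with a median of -0.81. All 47 large-subunit proteins lay below 0, against 9405 of all 19099 genes, and ranged from -2.22 to -0.09. RPL8, a protein of the large subunit, had scaled counts of 111, 108, 98 and 124 at day 20, against 346, 516, 578 and 602 at day 0, for its 4 guides. Every guide was lower at day 20, giving a log2 fold of -2.22 (guides from -2.50 to -1.59). RPL13 had 128, 141, 245 and 238 at day 20, against 501, 540, 694 and 783 at day 0, and a log2 fold of -1.80. RPL3 (-1.94), RPL27 (-1.71), RPS26 (-1.84, from 3 guides), RPS9 (-1.28) and RPS20 (-1.23) were lost as well. RPL8 was at -3.67 in RKO, where its guides stood at 22 scaled counts or fewer at day 20.

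Ribosome assembly and RNA synthesis had lost members too. Of 84 RNA polymerase I and rRNA processing factors 10 were lost, with a median of -0.63. Among them were NHP2, a core protein of the particles that pseudouridylate rRNA (-1.59), UTP3 (-1.53) and NOL10 (-1.52) of the small-subunit processome, and IMP3 of the U3 particle (-1.48, 4 of 4 guides past -1). RNA polymerase II lost 4 of 12 subunits, with a median of -0.62, and RNA polymerase III lost 4 of 19, with a median of -0.61. POLR2L, a small subunit that all 3 nuclear polymerases share, had 138, 261, 116 and 260 scaled counts at day 20, against 297, 1301, 579 and 965 at day 0. All 4 guides were lower, and the log2 fold was -2.07 in SW620 and -5.60 in RKO. POLR2I (-1.91), POLR2D (-1.31) and POLR2C (-1.13) of polymerase II and POLR3K (-1.36), POLR3C (-1.30) and POLR3A (-1.06) of polymerase III were lost as well.

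Mediator, which connects transcription factors with RNA polymerase II, lost 2 of 29 members, against 1.36 percent of all genes. MED11, in its head module, had 777, 33, 2 and 150 scaled counts at day 20, against 838, 585, 194 and 755 at day 0. Of its guides 3 fell steeply while the other changed little (-0.11), so the median of -3.13, the second lowest of all genes, rests on 3 guides. MED11 was at -2.42 in RKO. MED19, at the hook of the complex, was lost in SW620 at -1.08 and stood at -0.03 in RKO. Its guides in SW620 ran from -2.30 to 0.08, with 2 of 4 past -1. Without its strongest guide MED19 came to -0.66 in SW620 and is then not past -1.

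The spliceosome lost 8 of 65 core proteins, with a median of -0.57, led by SF3B5 of the U2 particle (-1.86), SNRNP25 of the minor spliceosome (-1.52), SNRPF of the Sm ring (-1.27) and LSM4 of the Lsm ring (-1.21). The RNA exosome, which trims and degrades RNA from the 3′ end, lost 4 of 14: EXOSC6 (-1.52), EXOSC2 (-1.41), EXOSC9 (-1.19) and EXOSC3 (-1.07). The guides to EXOSC3 ran from -2.29 to 0.48, with 2 of 4 past -1. It came to -0.66 without its strongest guide and to -0.99 with the mean of guides. Over all genes 1.36 percent were lost. The nuclear pore and Ran cycle list lost 2 of 39, NUP43 (-1.32) and the import receptor KPNB1 (-1.14). POP7, a protein of the RNases that mature tRNA and rRNA, was lost with all 4 guides past -1 and a log2 fold of -1.50. ZNHIT3, an assembly factor of box C/D particles that methylate rRNA, reached -2.01, with 42, 274, 289 and 45 scaled counts at day 20 against 716, 859, 606 and 255 at day 0. WDR77, the partner of the arginine methyltransferase PRMT5 in loading Sm proteins, was named after its values were seen and had the third lowest median, -2.60.

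Some of the enzymes that charge tRNA were lost, both cytosolic and mitochondrial, against 1.36 percent of all genes. Cytosolic synthetases lost 4 of 23, with a median of -0.64, and mitochondrial synthetases 2 of 16, with a median of -0.55. MARS and MARS2, which attach methionine to tRNA in the cytosol and in mitochondria, both had all 4 guides past -1, at -1.80 and -1.74. MARS guides had 123, 557, 131 and 22 scaled counts at day 20, against 524, 1272, 394 and 424 at day 0. VARS (valine, -1.53), NARS (asparagine, -1.35), SARS (serine, -1.27) and mitochondrial YARS2 (tyrosine, -1.40) were the other lost synthetases. Initiation factors lost 2 of 37, EIF2B2, of the exchange factor that recharges eIF2 (-1.32), and EIF6, which keeps ribosomal subunits apart (-1.25).

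The proteasome and the CCT chaperonin, which degrade and fold proteins, had lost members. The 20S proteasome core lost 4 of 14 subunits, with a median of -0.71: PSMB4 (-1.44), PSMB3 (-1.06), PSMB7 (-1.06) and PSMB5 (-1.05). The last 3 lay just past -1, and 9 of the 14 were lost at the 0.5 threshold. Its assembly chaperone PSMG3 was at -1.51, with all 4 guides past -1. The 19S regulator, which feeds ubiquitinated proteins into the core, lost 0 of 17, with a median of -0.55. All 17 lay below 0, against 9405 of all 19099 genes. At the 0.5 threshold 9 of the 17 were lost, against 6.68 percent of all genes. In RKO all 14 core and all 17 regulator subunits were lost, with medians of -3.27 and -2.68. The 13 genes of the immunoproteasome and the alternative activators, which serve antigen processing, had a median of -0.02. None of the 13 was lost, which does not stand apart from the 1.36 percent of all genes lost. The CCT chaperonin, which folds actin and tubulin, lost CCT3 (-1.31), CCT2 (-1.17) and CCT4 (-1.04), 3 of the 15 genes of its list.

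**Figure D2:**
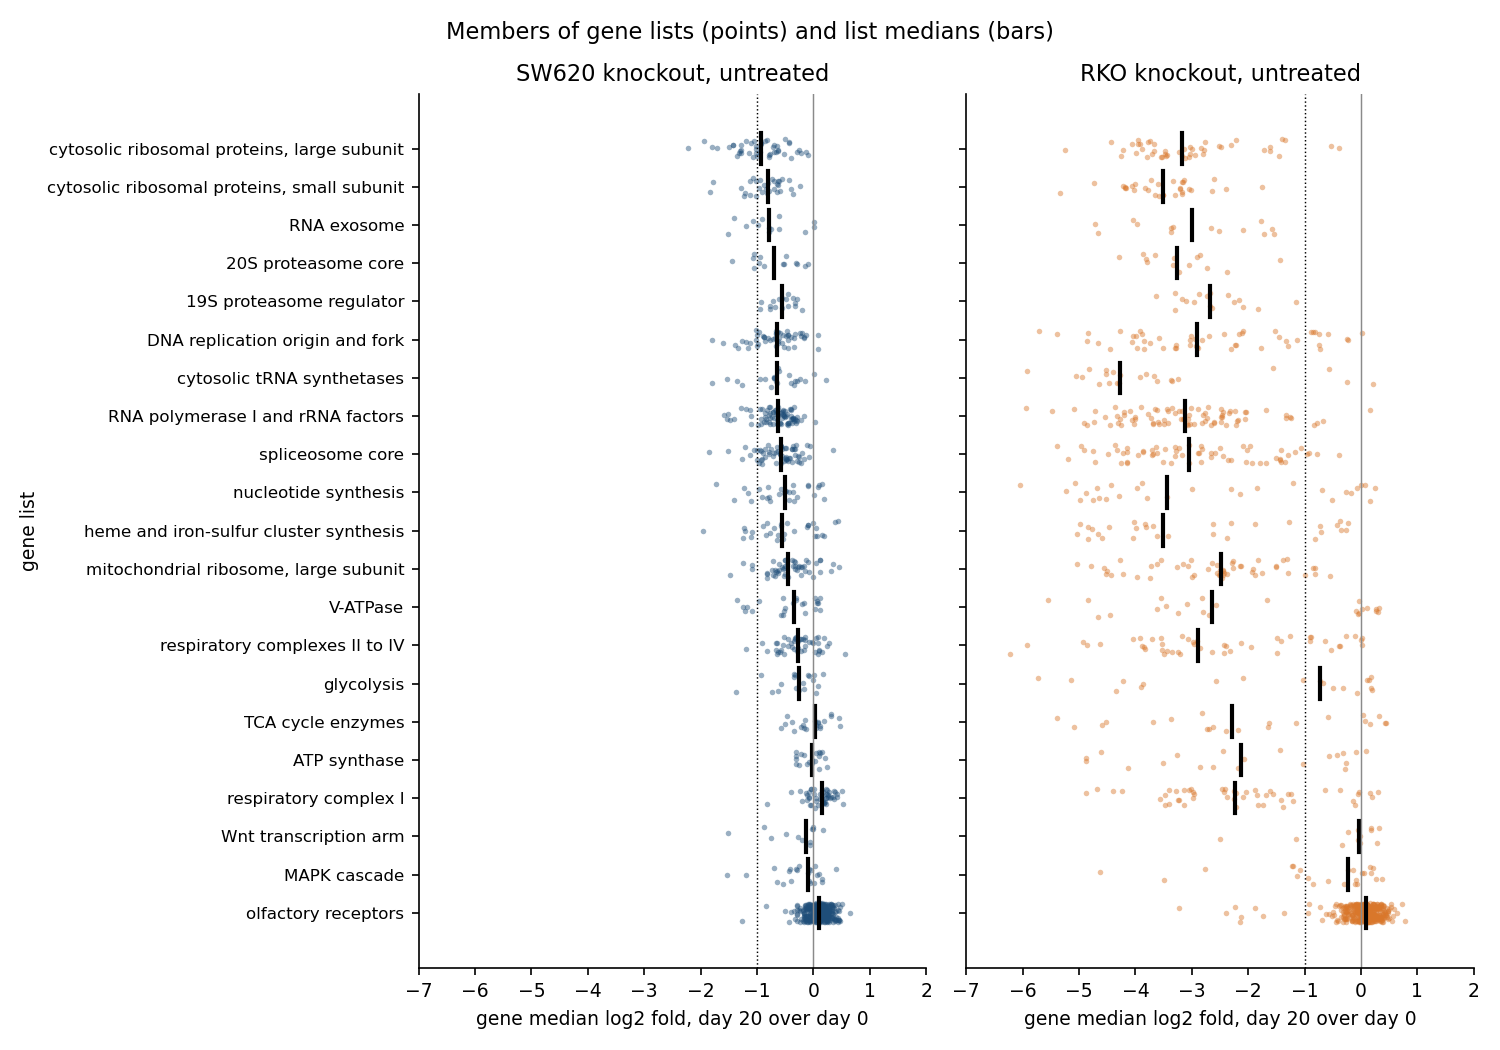
Gene median log2 folds, day 20 over day 0 (horizontal axis), of the members (points) of 21 gene lists (vertical axis), with each list's median (black bar), in SW620 (left) and RKO (right); the dotted line marks -1. In SW620 the lists from the large cytosolic to the large mitochondrial ribosomal subunit centre between -0.93 and -0.46 and respiratory complex I centres at 0.16, while in RKO complex I centres at -2.23 among the other mitochondrial lists.

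Several genes of DNA replication and chromosome segregation were lost. Of 53 origin and fork proteins 11 were lost, with a median of -0.65. PCNA, the sliding clamp, had 337, 33, 531 and 42 scaled counts at day 20, against 490, 194, 1291 and 230 at day 0, and a log2 fold of -1.79, with 1 guide at -0.53 and the others between -2.41 and -1.28. GINS2 of the replicative helicase (-1.60), RFC5 of the clamp loader (-1.39) and the origin-firing kinase CDC7 (-1.34) were also lost. The kinetochore list lost 5 of 46: the checkpoint protein BUB3 (-1.65), CENPM (-1.48), CENPW (-1.29), MIS18A, which helps load the centromeric histone (-1.24), and SPC24 (-1.24). The anaphase-promoting complex lost ANAPC2 (-1.05) and ANAPC11 (-1.04), its cullin and its RING subunit, of 16 genes. Cohesin and condensin lost 0 of 21 (median -0.39) in SW620, where 1.36 percent of all genes were lost. At the 0.5 threshold 8 of the 21 were lost, against 6.68 percent of all genes. In RKO 14 were lost (median -1.36), against 12.1 percent of all genes.

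Of the recombination and checkpoint lists a few members were lost, against 1.36 percent of all genes. BRCA1 had 337, 169, 389 and 483 scaled counts at day 20, against 860, 454, 1119 and 810 at day 0, a log2 fold of -1.37. It was at -1.34 in RKO, close to its SW620 value. Of the 29 recombination genes 2 (6.90 percent) were lost in SW620 and 17 in RKO, with medians of -0.25 and -1.09. RAD9A of the checkpoint clamp (-1.16) and ERCC2, a helicase of TFIIH with a role in transcription as well as in excision repair (-1.38), were the single lost members of the 16 ATR checkpoint and the 20 excision repair genes. At the 0.5 threshold 8 of the 16 ATR checkpoint genes were lost, with a list median of -0.48, against 6.68 percent of all genes. Mismatch repair and RecQ helicases (0 of 12, median 0.10) and the Fanconi anaemia pathway (0 of 18, median -0.27) had no lost member.

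Complex I, which passes electrons from NADH to quinone, had no lost member among 50 subunits and assembly factors, against 1.36 percent of all genes. Its median was 0.16, which lies within the non-targeting band. With the non-targeting guides as zero that median is -0.07. NDUFV1, the subunit that binds NADH, had 1015, 870, 656 and 1085 scaled counts at day 20, against 897, 713, 601 and 964 at day 0, a log2 fold of 0.17. Its guides were slightly higher at day 20, each within the range of the non-targeting guides. In RKO the same guides had 7, 7, 43 and 20 scaled counts at day 20, against 475, 415, 338 and 453 at day 0, a log2 fold of -4.69. In RKO 40 of the 50 were lost (median -2.23), and NDUFS1 was at 0.11 in SW620 and -4.88 in RKO. The lowest complex I member in SW620 was NDUFAB1 (-0.83), the acyl carrier protein that also serves iron-sulfur cluster assembly. Of the 50, 36 lay above 0 in SW620 and 3 in RKO, a count for SW620 that holds for the library's median as zero and not for the non-targeting guides. Of all 19099 genes, 9694 lay above 0 in SW620.

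The other respiratory complexes were lower. The 48 genes of complexes II to IV had a median of -0.27, and 1 was lost, CYC1, the cytochrome c1 of complex III (-1.20). At the 0.5 threshold 11 of the 48 were lost, against 1 of the 50 complex I genes and 6.68 percent of all genes. The 4 subunits of complex II, succinate dehydrogenase, chosen after their values were seen, were SDHD at -0.92, SDHC at -0.66, SDHB at -0.63 and SDHA at -0.59. ATP synthase (0 of 20, median -0.02) and the TCA cycle (0 of 22, median 0.03) had no lost member, whereas in RKO 13 of 20 and 15 of 22 were lost (medians -2.13 and -2.29). CS, the citrate synthase that opens the cycle, was at 0.11 in SW620 and -4.53 in RKO, and FH, the fumarase, was at -0.48 and -5.39. Relative to the median of all genes, the complex I and TCA cycle medians in SW620 were 0.15 and 0.03.

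Mitochondrial gene expression and iron-sulfur cluster synthesis had lost members in SW620, where 1.36 percent of all genes were lost. The mitochondrial ribosome lost 4 of 52 large-subunit proteins (median -0.46), MRPL57 (-1.48), MRPL33 (-1.25), MRPL41 (-1.09) and GADD45GIP1 (-1.09), and 1 of 30 small-subunit proteins (median -0.49), MRPS34 (-1.02). Iron-sulfur cluster and heme synthesis lost 6 of 30, with a median of -0.56. FDX1L, the ferredoxin that supplies electrons for cluster assembly, was the lowest at -1.96, followed by NFS1, the cysteine desulfurase (-1.24), FAM96B (-1.24) and HSCB (-1.22). NUBP1 (-1.10) and ISCA1 (-1.08) completed the 6. C19orf52, a gene whose product takes part in protein import into the inner membrane, had all 4 guides past -1 and a log2 fold of -2.00.

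Nucleotide synthesis was the metabolic list with the most loss apart from iron-sulfur clusters, 5 of 29 with a median of -0.50. Over all genes 1.36 percent were lost. DUT, which removes dUTP, was at -1.73, ADSL of purine synthesis at -1.23, IMPDH2 of guanine nucleotide synthesis at -1.17 and GART of purine synthesis at -1.10. IMPDH2 was at -0.69 in RKO and was not lost there. Glycolysis lost 1 of 19, TPI1, the triose phosphate isomerase (-1.37), and the mevalonate list lost 1 of 28, SCAP, the escort of the SREBP factors (-1.01). The V-ATPase, the pump that acidifies lysosomes, lost 5 of 24: ATP6V0B (-1.36), ATP6V0C (-1.24), ATP6V0D1 (-1.22), ATP6AP1 (-1.18) and ATP6V1G1 (-1.08). The first 4 are subunits of the membrane sector or its accessory proteins. Without the strongest guide SCAP came to -0.96, IMPDH2 to -0.97, ATP6V0C to -0.83 and ATP6V1G1 to -0.89, each then above -1. DAD1 of the N-glycosylation enzyme was at -1.95 and COPE of the COPI coat, the single lost member among 21 coat genes, at -1.17.

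**Figure D3:**
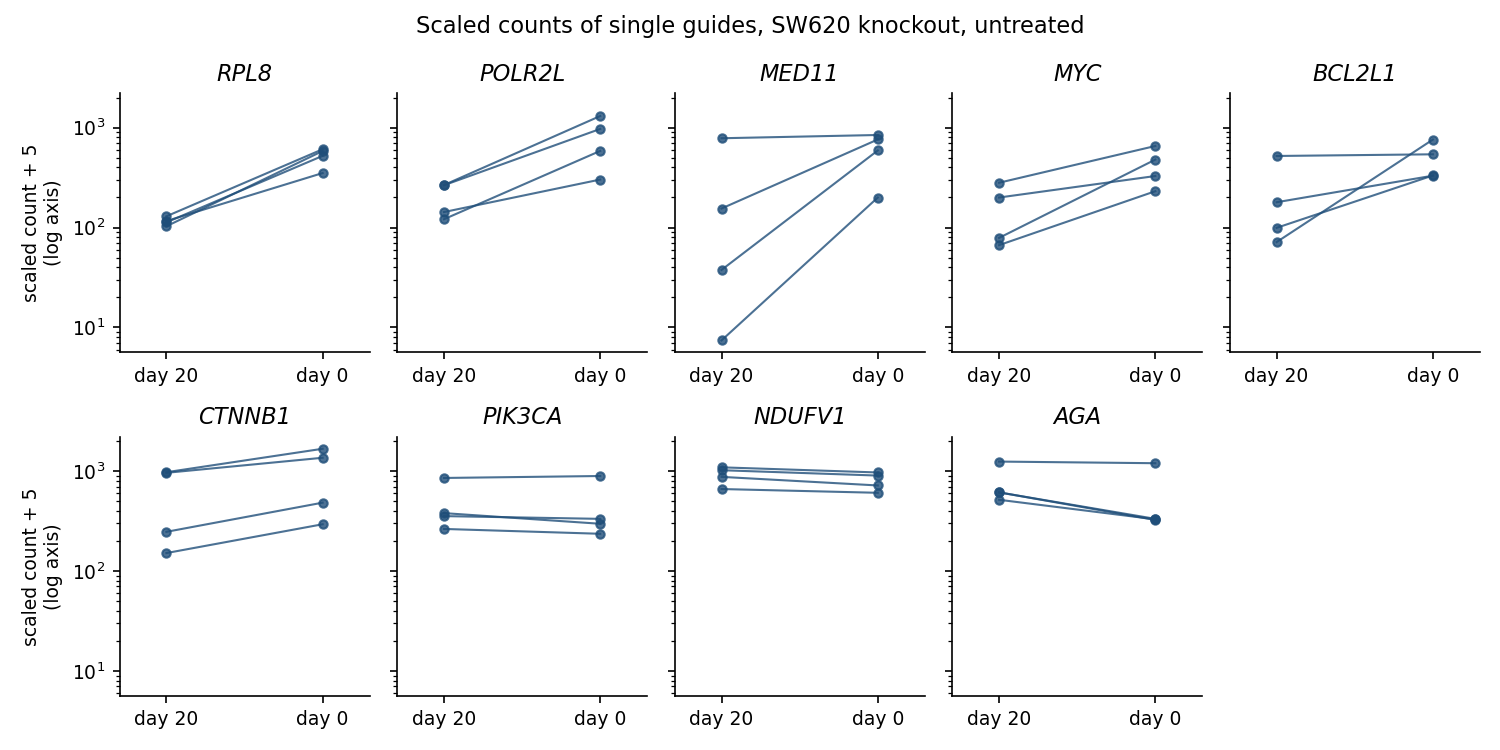
Scaled counts plus 5 (vertical axis, log scale) of each guide (joined points) at day 20 (left) and day 0 (right) in untreated SW620 for 9 genes. All 4 guides to RPL8, POLR2L, MYC and CTNNB1 were lower at day 20, 3 of 4 guides to MED11 and BCL2L1 were clearly lower, and the guides to PIK3CA and NDUFV1 were nearly level.

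Among oncogenes and survival genes, MYC, CDK6 and BCL2L1 were lost. MYC, the growth-promoting transcription factor, had 276, 195, 62 and 74 scaled counts at day 20, against 649, 323, 226 and 473 at day 0, with every guide lower and a log2 fold of -1.51 (-2.51 in RKO). CDK6, the kinase that with D-type cyclins starts the cell cycle, had 167, 236, 161 and 100 at day 20, against 403, 395, 565 and 320 at day 0. Its log2 fold was -1.44 (-1.05 in RKO). Its partner CCND1 was at -0.61 and CDK4, the related kinase, at -0.27 in SW620, against -0.11 and -1.24 in RKO. RB1, which these kinases inactivate, was at 0.26.

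Of the survival proteins of the BCL2 family, BCL2L1 was lost in SW620 and MCL1 in RKO. BCL2L1, which encodes BCL-XL, had 66, 174, 515 and 94 scaled counts at day 20 in SW620, against 754, 325, 535 and 327 at day 0. A single guide was near its day 0 count and 3 were lower, and the log2 fold was -1.31 in SW620, lost, and -0.32 in RKO, not lost. Without its strongest guide BCL2L1 came to -0.88 in SW620 and is then not past -1. MCL1, a related survival protein, had 306, 436, 740 and 724 at day 20 in SW620, against 467, 604, 722 and 621 at day 0, with a log2 fold of -0.22. It was lost in RKO at -2.16. The other 14 genes of this list lay between -0.51 (BAD) and 0.40 (BBC3) in SW620. The differences between lines were not tested.

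Beta-catenin and some of its partners were lower without reaching the full threshold. CTNNB1, which encodes beta-catenin, had 969, 146, 242 and 956 scaled counts at day 20, against 1668, 289, 478 and 1354 at day 0. Its 4 guides ran closely together, from -0.97 to -0.50, all below the 5th percentile of the non-targeting guides, and the log2 fold was -0.87. The ratio of its summed counts was -0.71 on the log2 scale (exact Poisson interval, 95 percent, -0.79 to -0.63, counting error only). TCF7L2, the main TCF factor of colon epithelium, had 1200, 769, 607 and 1266 at day 20, against 1449, 1287, 836 and 1809 at day 0, a log2 fold of -0.49 with all 4 guides below the non-targeting band. Of the guides to all genes, 38.1 percent lay below that band. BCL9L, a beta-catenin coactivator, was at -0.75, and ASCL2, a Wnt-driven factor of intestinal stem cells, at -0.80. In RKO, CTNNB1 was at 0.28, TCF7L2 at 0.32, BCL9L at -0.33 and ASCL2 at 0.42. Measured against the non-targeting guides, CTNNB1 in SW620 came to -1.10.

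Of the 12 genes of the Wnt transcription list 1 was lost at the full threshold, MYC, and 3 at 0.5, with a median of -0.14. Over all genes 1.36 percent were lost at the full threshold and 6.68 percent at 0.5, for comparison with the counts of lists given here. The factors TCF7 (-0.20) and LEF1 (-0.06), related to TCF7L2, and the coactivator PYGO2 (-0.07) lay nearer 0. APC, which marks beta-catenin for destruction and is inactivated in most colorectal cancers, was at 0.28 and AXIN1 at -0.01. Wnt ligands, receptors and their secretion factors had no lost member among 19 and a median of 0.11. Of 23 intestinal and colon identity factors none was lost at the full threshold and 3 were at 0.5, ASCL2, SOX9 (-0.56) and KLF5 (-0.54), with CDX2, the intestinal homeobox factor, at -0.01.

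The MAPK cascade carries growth signals from receptors to the nucleus. Its list had a median of -0.10 over 23 genes. Against 1.36 percent of all genes, 2 of the 23 were lost. These were FNTA and FNTB, the farnesyltransferase subunits that attach a lipid to signalling and other proteins. FNTA had 236, 349, 340 and 199 scaled counts at day 20, against 1071, 1263, 525 and 467 at day 0, with a log2 fold of -1.52 (-3.50 in RKO). FNTB was at -1.20 in SW620 and -4.62 in RKO. The adaptor phosphatase PTPN11 (-0.71), the kinase MAP2K2 (-0.65) and the exchange factor SOS1 (-0.53) passed the 0.5 threshold, at which 6.68 percent of all genes were lost. BRAF was at 0.39 in SW620 and -1.23 in RKO, where it was lost.

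Several genes that RKO lost were level in SW620. PIK3CA, the catalytic subunit of PI3-kinase, had 849, 375, 259 and 349 scaled counts at day 20, against 888, 292, 231 and 328 at day 0, a log2 fold of 0.13, and stood at -3.07 in RKO. WRN, a RecQ helicase, was at 0.13 and -2.93 in SW620 and RKO. MDM2, a ubiquitin ligase, was at 0.10 and -2.17. With the non-targeting guides as zero, PIK3CA, WRN and MDM2 in SW620 came to -0.10, -0.10 and -0.13. The growth restraints CDKN1A (0.37), SMAD4 (0.23) and NF2 (-0.15) were neither lost nor gained, nor was EGFR (0.07). In RKO these 4 genes were at -0.09, 0.03, 0.58 and 0.29.

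**Figure D4:**
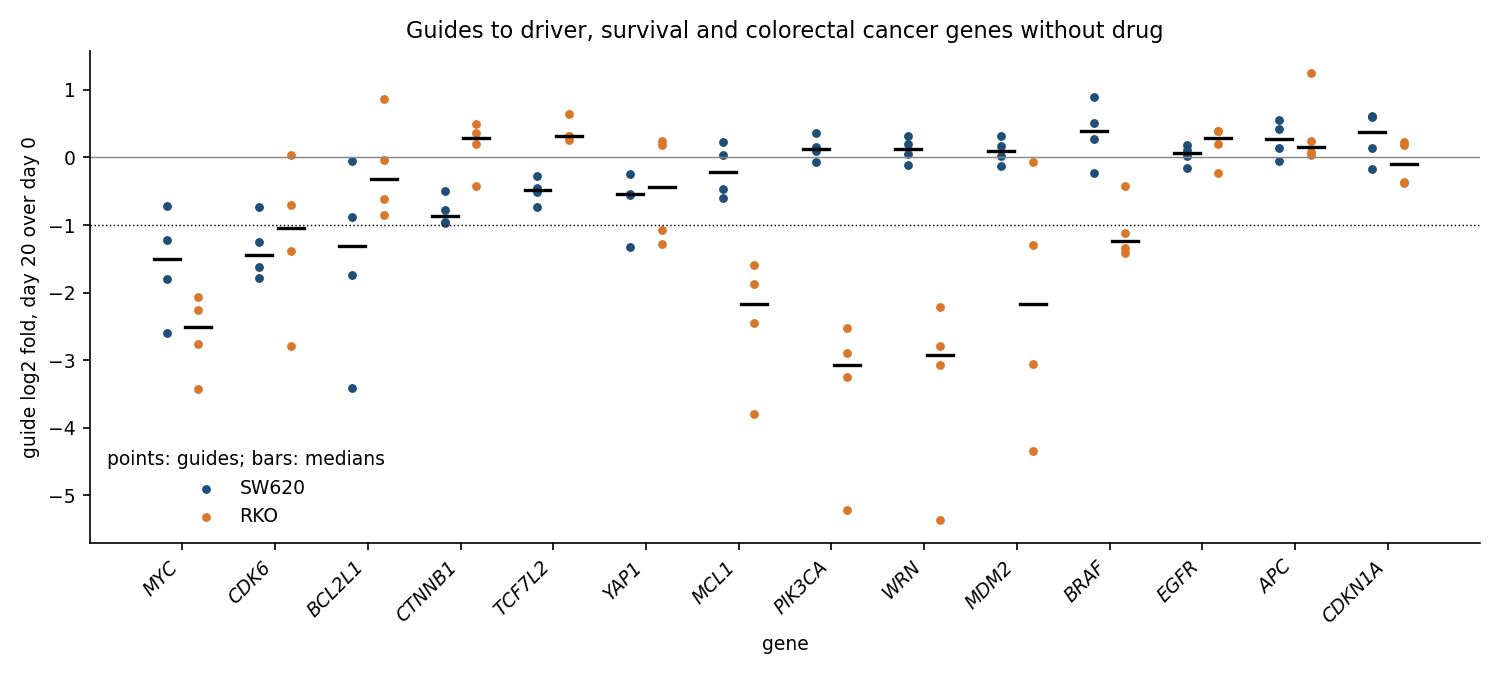
Guide log2 folds, day 20 over day 0 (vertical axis), for 14 genes (horizontal axis) in SW620 (left, blue) and RKO (right, orange), with the median of each gene as a bar and -1 as a dotted line. In SW620 MYC, CDK6 and BCL2L1 lie below -1 and CTNNB1 lies at -0.87 with tightly placed guides, while the medians of MCL1, PIK3CA, WRN, MDM2 and BRAF lie below -1 in RKO and between -0.22 and 0.39 in SW620.

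With 1.36 percent of all genes lost, a list of 10 to 50 genes without a lost member does not stand apart from the rest. This holds for the lists above too, and the chromatin, growth factor and cell death lists below are given for their values. None was lost of the 28 BAF and PBAF remodelling genes (median -0.08), the 24 Polycomb genes (median -0.04) or the 16 SAGA coactivator genes (median -0.23), of which TRRAP (-0.76), the acetyltransferase KAT2A (-0.63), CCDC101 (-0.56) and TADA2B (-0.53) passed the 0.5 threshold. None of the 30 mTORC1 activators was lost (median -0.08), and the kinase MTOR (-0.82) and its partner RPTOR (-0.68) were among 6 that passed 0.5. In RKO 10 of the 30 were lost, against 12.1 percent of all genes, with MTOR and RPTOR at -3.48 and -3.65. At the 0.5 threshold in SW620, 25 percent of the SAGA genes and 20 percent of the mTORC1 activators were lost, against 6.68 percent of all genes. The shares of the BAF and PBAF and of the Polycomb genes were 3.57 and 0 percent. The 21 mTORC1 suppressors (median -0.15), the 20 TGF-beta and SMAD genes (median 0.03), the 19 epithelial receptor tyrosine kinases (median 0.00), the 20 death receptor and caspase genes (median 0.08) and the 10 large neutral amino acid transporters (median -0.06) had no lost member. Of the 63 lists 34 had at least 1 lost member, and 126 of the 260 lost genes were in no list.

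Lists of genes with no known role in these cells stayed near 0. Of 374 olfactory receptors 1 was lost and the median was 0.10. The lost one was OR4F29, at -1.27 from 3 guides, a member of a subtelomeric family with near-identical copies, so its guides may cut more than 1 locus. Taste receptors (27 genes) and vision genes (29 genes) had medians of 0.16 and 0.07 and no lost member. With the non-targeting guides as zero, the medians of olfactory, taste and vision genes turn negative, at -0.13, -0.07 and -0.16.

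No gene reached the gain threshold. The 12 genes gained at 0.5, named after their values were seen, were led by AGA, a lysosomal glycoprotein hydrolase, at 0.76. Its guides had 608, 607, 1240 and 511 scaled counts at day 20, against 319, 328, 1194 and 324 at day 0, so 3 were higher and 1 was level. NOA1, a mitochondrial GTPase of ribosome assembly, was at 0.74, CREBZF at 0.69, PGM2 at 0.65, the olfactory receptor OR5H6 at 0.64, ADGRL2 at 0.62, GMNC at 0.61 and ATP13A1 at 0.61. IL2, IL21, DNAH12 and SMCO4 lay between 0.58 and 0.59. The non-targeting guides themselves had a median of 0.22 and a 95th percentile of 0.54. With those guides as zero, the values of these 12 genes are lower. The 24 Hippo suppressors, which restrain YAP and TAZ, had a median of 0.05 and no gained member. YAP1 itself was lower, at -0.55. SLC43A1, the amino acid transporter LAT3, was at 0.37 without drug and at 8.64 and 11.55 in 0.38 and 0.5 µM oxaliplatin over day 0.

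Of the 260 lost genes 14 were tested and not lost in RKO, and 2, LOC100507462 and LOC100144595, were not tested there. Those named here, after their values were seen unless a list names them, are BCL2L1, IMPDH2 and MED19, described above, and EIF2AK4, PPP1R15B, TMED10, DNAJC9 and NOL7. EIF2AK4 encodes GCN2, the kinase that senses uncharged tRNA. Its guides had 98, 859, 1047 and 496 scaled counts at day 20, against 495, 2348, 1379 and 1067 at day 0. Every guide was lower, from -2.28 to -0.40, and the log2 fold was -1.27 in SW620 and -0.53 in RKO. Over the same day 0 library it was at 2.20 and 4.01 in 0.38 and 0.5 µM oxaliplatin. The 95th percentiles of the non-targeting guides there were 1.63 and 3.87.

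PPP1R15B, the subunit that directs a phosphatase to remove the mark GCN2 places on eIF2 alpha, had 174, 192, 221 and 128 scaled counts at day 20, against 388, 367, 424 and 309 at day 0. Its guides lay between -1.24 and -0.92, and the log2 fold was -1.03 in SW620 and 0.39 in RKO. TMED10, a cargo receptor of the early secretory pathway, was at -1.02 in SW620 and 0.18 in RKO. DNAJC9, a histone and heat shock co-chaperone, was at -1.70 and -0.60, and NOL7, a nucleolar protein, at -1.25 and -0.55. LOC100507462, for which the files give no further name, had the lowest median of all, -4.40. Of its guides 3 had 2, 1 and 0 scaled counts at day 20, against 207, 146 and 87 at day 0, and the other had 1612 against 1857. Those 3 guides had 9 scaled counts or fewer in RKO at day 0, so the gene was not tested in that line. LOC100144595 was at -2.01, with 2 guides at -3.80 and -3.75 and the others at -0.27 and 0.36.

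Some lost genes share sequence with others. WASH1, of the complex that builds actin on endosomes and one of a family of subtelomeric copies, was lost with all 4 guides past -1 and a log2 fold of -1.69. Another 4 lost entries were read-through loci that join neighbouring genes (RPL17-C18orf32, PMF1-BGLAP, BCL2L2-PABPN1 and CHURC1-FNTB), whose guides can fall in a gene also targeted on its own. BCL2L2-PABPN1 (-1.15) and CHURC1-FNTB (-1.02) lay near PABPN1 (-1.13) and FNTB. PMF1-BGLAP (-1.35) was lower than PMF1 (-0.71) and BGLAP (0.07), and RPL17-C18orf32 (-1.95) lower than RPL17 (-0.93) and C18orf32 (-0.17). Members of multi-copy families were grouped after values were seen. Their median over 112 genes was -0.10 in SW620 and -0.95 in RKO. In SW620 4 were lost (3.57 percent), against 1.36 percent of all genes, 1 each in the CLEC18, NPIP, SPDYE and WASH families. In RKO 54 of the 112 were lost, against 12.1 percent of all genes. The USP17L repeats, 25 near-identical deubiquitinase genes, were at -0.04 and -1.20.

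Day 0 levels varied between the lists. In SW620 the typical gene's guides stood at 40.2 percent of the non-targeting median at day 20 and 47.9 percent at day 0. Guides to the large-subunit ribosomal proteins stood at 17.7 percent at day 20 and 39.2 percent at day 0, and those to RNA polymerase II at 16.8 and 34.8 percent. Other lists with lost members started near or above the typical gene: at day 0 the small ribosomal subunit stood at 47.8 percent, RNA polymerase III at 51.3 percent and Mediator at 56.1 percent. All growth lists together were at 45.4 percent, and taste receptors and vision genes, with no lost member, at 43.3 and 42.6 percent. For olfactory receptors the levels were 47.3 percent at day 20 and 51.1 percent at day 0. In RKO the large-subunit proteins were at 0.37 percent at day 20 and 15.1 percent at day 0, so their shortfall at the start was larger there. A fold over day 0 leaves out what happened before that library was taken, and the part this had in the differences between lines was not tested.

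In the drug-treated libraries of SW620, compared with the same day 0 library, 1410 of 19099 genes (7.38 percent) were lost in 0.38 µM and 1036 of 19098 (5.42 percent) in 0.5 µM oxaliplatin. The 260 genes lost without drug had medians of -1.80 and -2.52 there, against -0.03 and -0.10 over all genes. They were chosen over the same day 0 library, so part of their loss here can follow from that choice. The background was far wider in the drug-treated libraries, with non-targeting SDs of 0.83 and 1.90 against 0.20 without drug, so single values carry less weight. Complex I had medians of 0.00 and -0.47 and large ribosomal proteins -1.82 and -2.37 in 0.38 and 0.5 µM.

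A run of neighbouring genes on chromosome 16 was lower in SW620. Genes were put in their order along each chromosome, the growth, respiration and metabolism lists were left out, and medians were taken over 25 neighbours. Among 17392 such windows the lowest was -0.53, on chromosome 16, against a median of 0.01 over all windows. Of the 99 windows at -0.3 or lower, a limit set after seeing the data, 91 lay on that chromosome in an unbroken run of 92 genes from CDH16 to PHLPP2. These 92 genes had a median of -0.39 in SW620 and 0.00 in RKO, and 87 of them lay below 0 in SW620 and 45 in RKO. Of all 19099 genes, 9405 lay below 0 in SW620. At the 0.5 threshold 31 of the 92 genes (33.7 percent) were lost, against 6.90 percent of the other genes of the chromosome and 4.42 percent of all placed genes. The run was found from these values, so its numbers describe it and test nothing.

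The genes in the run have varied roles. It held CDH1, the E-cadherin of epithelial junctions (-0.40 in SW620, 0.42 in RKO), CDH3, the P-cadherin (-0.53, -0.07), the epithelial splicing regulator ESRP2 (-0.71, 0.33), the ubiquitin ligase WWP2 (-0.76, 0.08), the mitochondrial deformylase PDF (-0.90, 0.05) and the amino acid transporter SLC7A6 (-0.52, 0.31). Lost at the full threshold were TERF2, a telomere-binding protein (-1.44), CLEC18C, one of 3 near-identical lectin genes (-1.40), TANGO6 (-1.18) and SLC7A6OS (-1.11), and all 4 were lost in RKO too, at -4.51, -1.15, -3.45 and -1.78. Of the guides to the run 78.6 percent lay below the 5th percentile of the non-targeting guides, against 38.1 percent of all guides, while 9.86 percent passed -1. NFAT5 (0.10) and CMTR2 (0.27) were not lower within the run. DNA copy number was not measured in these libraries, and its part in the pattern was not tested.

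**Figure D5:**
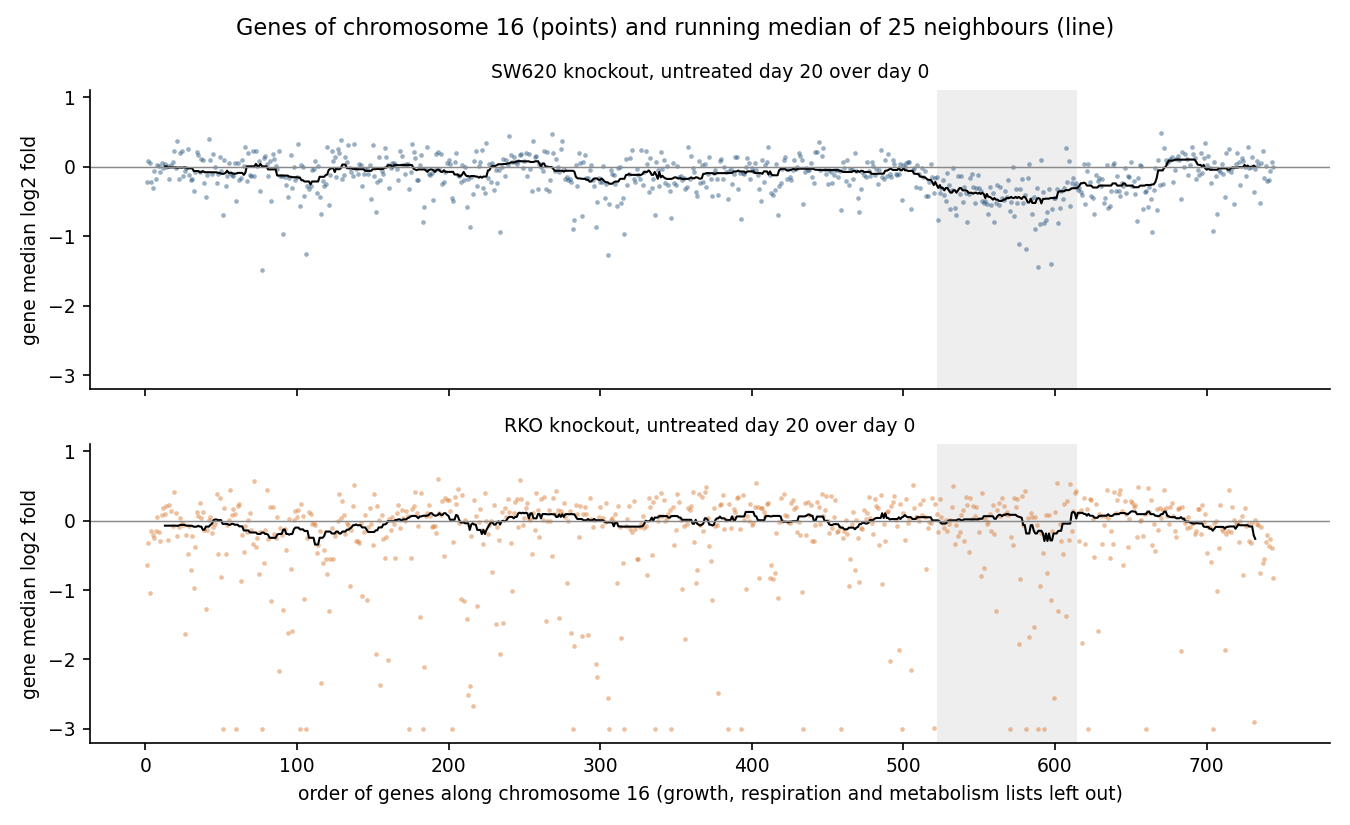
Gene median log2 folds, day 20 over day 0 (vertical axis), of chromosome 16 genes in their order along the chromosome (horizontal axis, rank), in SW620 (top) and RKO (bottom). Points are genes, with values under -3 drawn at -3, the line is the median of 25 neighbours and the shading spans the 92 genes from CDH16 to PHLPP2, whose median was -0.39 in SW620 and 0.00 in RKO.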

How the data were processed

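Guide cassettes amplified from genomic DNA were sequenced, and the authors deposited raw counts, whole numbers per guide and library, for each knockout screen. A second deposited table per screen holds the same counts times 1 constant per library, a normalized signal used only as an alternative. The submitters' processing notes name cutadapt 4.0 and MAGeCK 0.5.7; their roles and settings, the annotation and the build are not given in the sources used here. Activation screens were not used. All columns were matched to samples by name (0 without a sample).

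The 2 libraries compared were brought to 1 scale by the median ratio of their guide counts, and log2 folds were taken with a pseudocount of 5. Guides with a scaled day 0 count under 30 were left out (76940 of 77441 stayed), genes needed 3 guides, and the gene value is the median over guides. Lost and gained were defined by a log2 threshold of 1 and 3 guides outside the 5th or 95th percentile of 992 non-targeting guides, with 0.5 as a second threshold. With 1 library per condition there is no test and no replicate check. Intervals are exact Poisson intervals and hold for counting error alone, since amplified reads carried no molecular identifier. The calculation was tested on simulated data.

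The gene set, the 63 gene lists and the tests were chosen with earlier results of these data known. Named by rule were the 15 lowest lost genes with 4 of 4 guides past the threshold, the 4 lowest lost members of each list (all where 6 or fewer were lost) and a fixed set of genes that includes CTNNB1, TCF7L2, MYC, APC, CDKN1A, SMAD4, NF2, BRAF, PIK3CA, EGFR, WRN, MDM2, BCL2L1, MCL1, CDX2 and SLC43A1. Results for some genes are not reported here. Every other gene named was chosen after its values were seen. Of the 19114 symbols, 17852 are current, 1135 older and 127 unmatched in RefSeq's gene table (GRCh38.p14), which gave gene order only; 9 list entries matched no symbol and were not used here. Chromosome Y was left out of the neighbour windows. Python 3.11.15, numpy 2.4.6, pandas 2.3.3 and scipy 1.17.1 were used.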

Additional observations from a re-analysis of the deposited data

Results flagged for a closer look

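The values below had opposite signs in SW620 and RKO without drug, with 1 library per condition in each line, and the difference was not tested. The median of respiratory complex I was 0.16 in SW620 and -2.23 in RKO. The median of the TCA cycle enzymes was 0.035 in SW620 and -2.29 in RKO. BRAF was at 0.39 in SW620 and -1.23 in RKO, PIK3CA at 0.13 and -3.07, WRN at 0.13 and -2.93, and MDM2 at 0.10 and -2.17. With the non-targeting guides of SW620 as zero, BRAF came to 0.16, and the SW620 values of complex I, the TCA cycle, PIK3CA, WRN and MDM2 came to -0.07, -0.20, -0.10, -0.10 and -0.13, so for these 5 the opposite sign depends on the zero point. No group held the 4 or more samples that a check for outlying samples needs.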

How the results depend on the processing

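The count of 260 lost genes was 554 with the non-targeting guides set equal, which shifted the median of all genes to -0.23 and contained all 260. It was 151 without each gene's strongest guide, 150 of them shared with the 260, which leaves 3 guides for most genes. It was 1276 at a threshold of 0.5 and 9 at a threshold of 2, by construction. The count lay between 224 and 304 under the other alternatives: pseudocounts of 1 and 20, total count scaling, the deposited normalized table, no filter on counts, a day 0 minimum of 100, a mean count of at least 20, the mean of guides and no requirement on non-targeting guides. The count of gained genes was 12 at a threshold of 0.5 and 0 under the other alternatives. Medians of complex I, the TCA cycle and olfactory receptors changed sign with the non-targeting guides set equal (to -0.07, -0.20 and -0.13) but kept their distance of 0.15, 0.03 and 0.10 to the median of all genes. Without the strongest guide the median moved to -0.57 in the RNA exosome, to -0.24 in the large mitochondrial ribosomal subunit and to -0.38 in initiation factors. Of 116 single genes examined, 53 moved by at least the non-targeting SD without the strongest guide, and 24 did with the mean of guides. All 53 moved toward 0, a direction largely set by leaving out the guide farthest from 0. Of the 99 at -1 or lower, 30 then lay above -1 without the strongest guide, and 8 with the mean of guides. Among the 30 were BCL2L1 (-0.88), RFC5 (-0.78), NFS1 (-0.75), SARS (-0.73), MED19 (-0.66), EXOSC3 (-0.66), NUP43 (-0.65), CCT2 (-0.59) and SPC24 (-0.59). OR4F29 came to -0.96 without a count filter and is then not lost. No paired analysis was possible because each condition has 1 library. The spread between non-targeting guides was 3.77 times the counting error. The spread between replicate libraries was not measured.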
